A study of Mus musculus with 2 samples.

Results

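Nodal and BMP4 are secreted ligands of the TGF-β family. Nodal binds activin receptors together with the co-receptor Cripto, encoded by Tdgf1, and signals through Smad2, Smad3 and Smad4, and its targets include its own inhibitors Lefty1 and Lefty2. BMP4 binds BMP receptors and signals through Smad1, Smad5 and Smad9 with Smad4, and its targets include the Id genes, whose products hold back basic helix-loop-helix transcription factors. In mouse ES cells both pathways are active, and BMP signals with LIF are known to support self-renewal. Here, 9 genes of these pathways, Nodal, Lefty1, Lefty2, Tdgf1, Smad7, Bmp4, Id1, Id2 and Id3, were compared between Baf53b- and Baf53a-expressing Baf53a-deficient ES cells. They were chosen by name, as all probes whose RefSeq accession maps to 1 of these symbols, which gave 12 probes out of 27410 with a symbol, for 9 of 20823 genes.

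The cells were E14-derived Baf53a cKO ES cells, a line that is 1 clone in which both Baf53a alleles were mutated and a CRISPR/Cas9-resistant Baf53a was kept under the control of Tet. They were transfected with a vector for Myc-tagged Baf53a or Baf53b, divided 48 h later, and cultured with LIF and 1 μg/mL Tet for 6 days, which shuts off the resistant Baf53a in both groups. RNA of 1 culture per group was measured on 1 array each (arrays 3 and 4 of the same slide), so that no value has a replicate, no p-value is given, and differences between the Baf53 forms and between these particular cultures cannot be told apart. Neither untreated cells nor cells with an empty vector are among the arrays. The labels were checked by the genes of the Baf53 forms. Actl6b, the Baf53b gene, read 3.40 in Baf53a-expressing cells, not well above background, and 119 in the others, at least 14.5-fold higher when set against the lowest signal well above background on the first array. Actl6a, the Baf53a gene, stood at 1.71 and 1.67 on the log2 scale after each array was scaled to its 75th percentile. The difference of -0.04 is within the spot SD of 0.059. The Baf53a vector given to 1 group thus left no excess at the Actl6a probe, and whether that probe reads RNA of the vector was not tested. Only Actl6b therefore sets the labelled groups apart. Of the genes on the array, 16608 were measured on both arrays.

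The 9 genes had nearly the same signal in both groups. All of them were measured on both arrays, and the differences, given here as Baf53b- minus Baf53a-expressing cells on the log2 scale, ran from -0.05 for Nodal to 0.12 for Id3, with a median of -0.014. None was 2-fold apart, against 0.193% of all genes measured, and none was 0.5 or more apart, against 2.35%. All 9 lay within 0.2, as did 80.5% of all genes, which had a median of -0.0032. All 9 genes also lay above the 75th percentile on both arrays, and of the 5583 such genes 93.8% lay within 0.2, 0.0896% were 0.5 or more apart and 0% were 2-fold apart. Id1, Id2 and Id3 were higher and the other 6 genes lower in Baf53b-expressing cells, where 49.1% of all genes and 30.4% of those above the 75th percentile were higher. That split of 3 higher and 6 lower rested on the scaling of the arrays. It became 9 and 0 under quantile normalization, 8 and 1 under cyclic loess and 2 and 7 with the arrays centred on the median. In the same order, 46.9%, 48.3% and 35.6% of all genes were higher in these settings. In RNA of whole cultures, fewer cells of a type and less RNA per cell cannot be told apart.

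**Figure D1:**
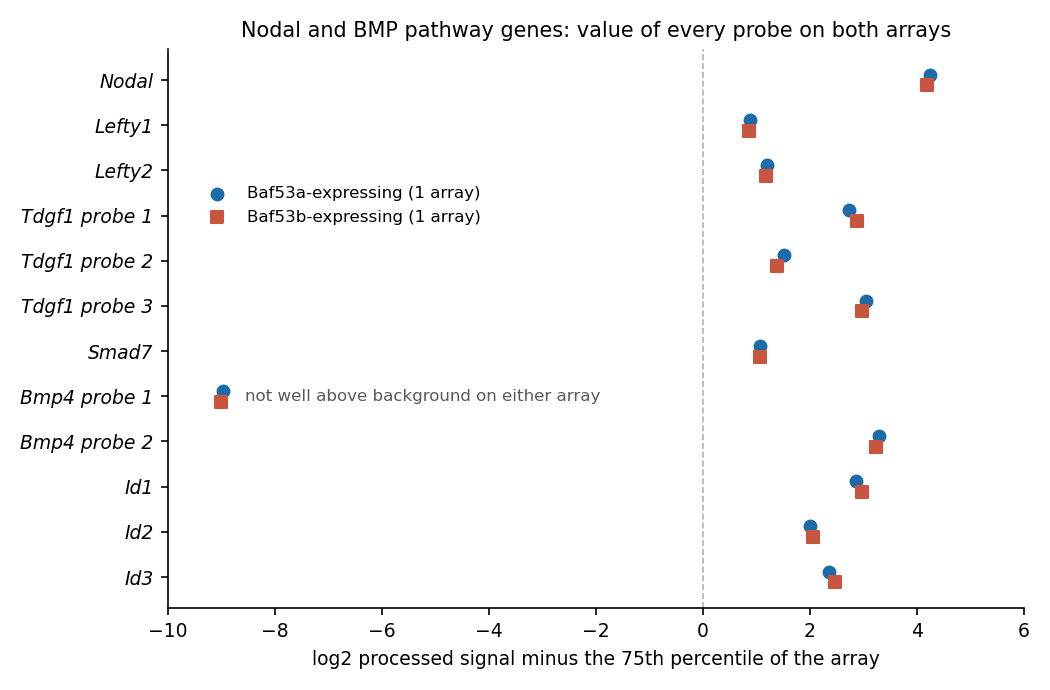
Log2 processed signal of each of the 12 probes of the 9 genes, minus the 75th percentile of its array (dashed line at 0), with circles for the array of Baf53a-expressing and squares for that of Baf53b-expressing cells. The circle and square of each probe lie close together, and of the 12 probes only Bmp4 probe 1 lies at background; positions of different probes are not comparable levels.

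An error can be set beside these values from the spots, and another from the scanner software. Among probes printed as several spots, the difference between single spots of 1 probe had an SD of 0.059 in the brightest of 5 groups of probes, which holds Nodal, Bmp4, the Id genes and 2 of the 3 Tdgf1 probes, and of 0.066 in the next, which holds Lefty1, Lefty2, Smad7 and the other Tdgf1 probe. The error estimate of the scanner software gave a larger value, 0.204 for the difference of each of the 11 probes measured. Both cover the spot and not the culture or the labelling. The 11 differences, from -0.12 to 0.16, were all smaller than the software's estimate. That estimate was the same for all 11 probes whatever their signal, so it does not measure the spread of a single probe.

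Nodal, the ligand, read 21903 as processed signal in Baf53a-expressing cells, and 20524 where Baf53b was expressed. Signals below are given in the same order. After scaling these were 4.24 and 4.19 on the log2 scale, a difference of -0.05 that is within the spot SD of 0.059. Gdf3, a related ligand that also uses Cripto, differed by -0.24, from -0.28 to -0.21 over its 2 probes. It stayed between -0.29 and -0.20 over the 11 settings run, of which only 4 change the scaling or the background.

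Lefty1 and Lefty2 encode secreted inhibitors that bind Nodal and its co-receptors. Lefty1 had signals of 2128 and 2045, or 0.87 and 0.86 after scaling, a log2 difference of -0.015. Lefty2 had signals of 2650 and 2550, or 1.19 and 1.18 after scaling, a log2 difference of -0.014. The values of both genes were thus level between the arrays within the spot SD of 0.066. The 2 genes are close relatives that lie near each other on the same chromosome, and whether their probes tell them apart was not tested.

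Smad7, an intracellular inhibitor induced by TGF-β family signals, had signals of 2441 and 2369. Its scaled values were both 1.07 on the log2 scale, with a difference of -0.0015. Among all settings run the differences of Lefty1, Lefty2 and Smad7 ran from -0.07 to 0.03, with a sign that turned positive under quantile normalization, cyclic loess and normexp.

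Tdgf1, which encodes the Nodal co-receptor, was the only one of the 9 genes measured by more than 1 probe, and its probes disagreed. Its probe A_55_P1968028 had signals of 7694 and 8334, with a log2 difference of 0.16. Probe A_55_P2058540 had signals of 3325 and 2962, with a log2 difference of -0.12. Probe A_55_P2183147 had signals of 9612 and 8825, with a log2 difference of -0.08. Of the 3 probes, 1 was thus higher and 2 were lower in Baf53b-expressing cells, which averaged to -0.016 for the gene. The gap between the highest and the lowest was 0.28, and 3.85% of the 130 genes with 3 probes in the 2 brightest groups had a gap at least as wide (median 0.09). The first probe stayed above 0 in all 8 scalings and spot settings in which it was recomputed (0.11 to 0.21), the second below 0 (-0.18 to -0.06), and the third below 0 as well (-0.13 to -0.018). All 3 carry the same accession, so the files do not tell which transcript each reports.

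**Figure D2:**
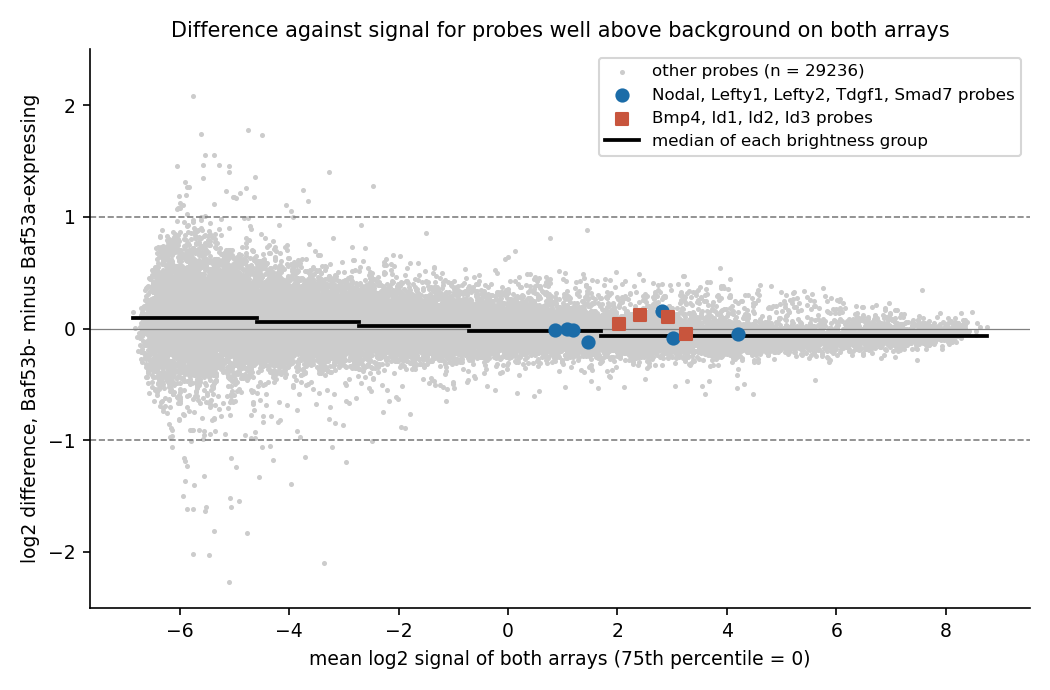
Log2 difference (Baf53b- minus Baf53a-expressing cells) against the mean log2 signal for all 29247 probes that were well above background on both, with 11 probes of the 9 genes marked as circles (Nodal side) and squares (BMP side), dashed lines at 2-fold and the median of each of 5 brightness groups as black bars. The marked probes sit among the bright probes, between -0.12 and 0.16, while the group medians run from 0.10 in the dimmest to -0.06 in the brightest group.

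Bmp4, the BMP ligand of the 9 genes, had signals of 11319 and 10612 on its probe A_55_P2154387. After scaling these were 3.29 and 3.23 on the log2 scale, a difference of -0.05. The other Bmp4 probe, A_55_P1959022, carries the same accession but was not well above background on either array, with signals of 2.31 and 2.20. Of 2299 genes with several probes, at least 1 of them above the 75th percentile on both arrays, 3.13% had another probe that was not well above background on either array. The value of Bmp4 therefore rests on 1 probe.

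The Id genes are direct targets of BMP signals, and the 3 among the 9 genes were all higher in Baf53b-expressing cells, by small amounts. Id1 had signals of 8496 and 8868, or 2.87 and 2.98 after scaling, a log2 difference of 0.10. Id2 had signals of 4681 and 4682, or 2.01 and 2.05 after scaling, a log2 difference of 0.04. Id3 had signals of 5925 and 6268, or 2.35 and 2.47 after scaling, a log2 difference of 0.12. The differences of Id1 and Id3 were larger than the spot SD of 0.059, and that of Id2 was smaller. All 3 were smaller than the software's error of 0.204, which did not vary between the measured probes of the 9 genes. The median probe of the brightest group stood at -0.06, and against it Id1 lay 0.17, Id2 0.11 and Id3 0.19 higher. As a description of these arrays, 9.23% of the probes of that group lay at least as far from its median as Id1, 24.6% as far as Id2 and 7.18% as far as Id3. Id1 and Id3 were above 0 in all 11 settings run, from 0.05 to 0.19 and from 0.07 to 0.18, and Id2 in all but centring on the median, where it was -0.0089. Id4, the fourth Id gene, differed by -0.12 in the other direction and stayed between -0.18 and -0.12.

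**Figure D3:**
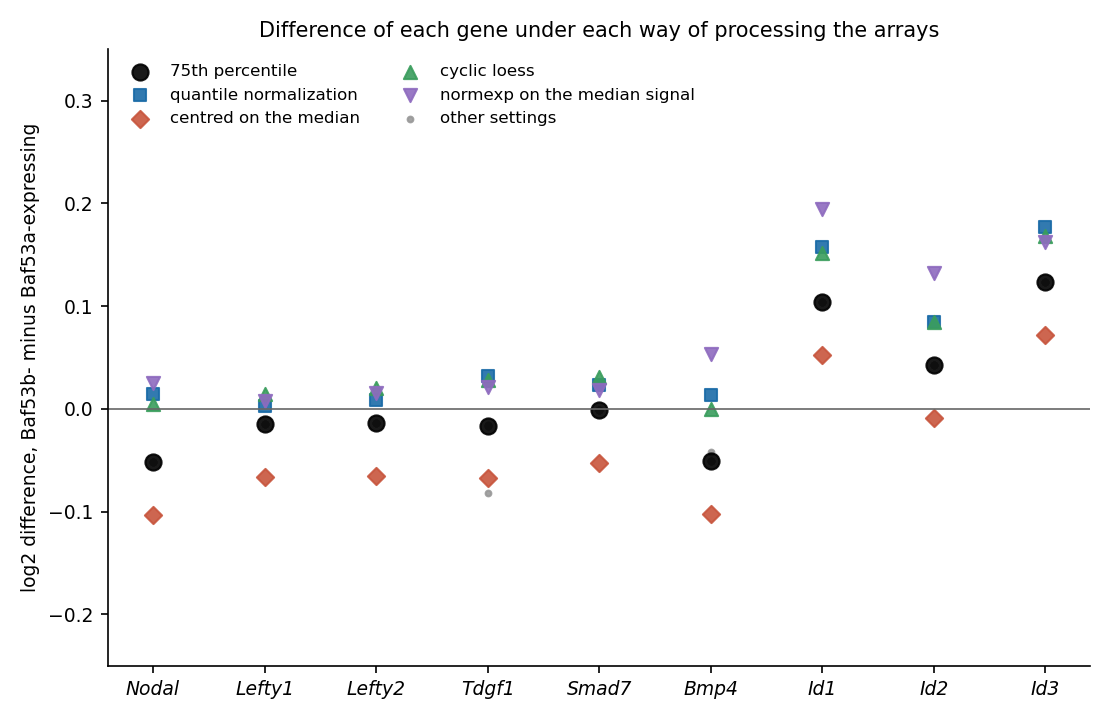
Log2 difference of each of the 9 genes (Baf53b- minus Baf53a-expressing cells) under the 11 settings run, with the 4 that change the scaling or the background in colour, the main setting in black and the others in grey. Id1 and Id3 stay above 0 throughout, and the other 7 genes are found on both sides of 0.

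Promoters of Id genes are shown because Id1, Id2 and Id3 were the 3 of the 9 genes that were higher in Baf53b-expressing cells in the main setting. RefSeq promoters (GRCm38.p6) were matched for 5 of the 9 genes, Nodal, Tdgf1, Bmp4, Id2 and Id3. The 250 bases before the start of Id2 (chr12:25096093-25096342, minus strand) and of Id3 (chr4:136143572-136143821, plus strand) are given 5′ to 3′. Capitals mark GGCGCC, a GC-rich element known to be bound by Smads of the BMP branch, and the GC box GGGCGG or its reverse complement.
Id2: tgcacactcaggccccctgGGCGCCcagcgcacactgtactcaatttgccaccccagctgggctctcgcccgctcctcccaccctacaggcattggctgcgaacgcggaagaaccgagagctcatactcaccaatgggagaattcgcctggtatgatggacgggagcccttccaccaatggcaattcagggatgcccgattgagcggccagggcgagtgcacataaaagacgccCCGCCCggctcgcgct
Id3: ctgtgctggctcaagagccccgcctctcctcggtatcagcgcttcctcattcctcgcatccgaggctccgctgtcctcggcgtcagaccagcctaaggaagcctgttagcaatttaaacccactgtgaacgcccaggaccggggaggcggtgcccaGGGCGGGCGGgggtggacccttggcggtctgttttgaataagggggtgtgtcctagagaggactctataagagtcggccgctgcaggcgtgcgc
In the Id2 promoter GGCGCC begins at position -231, counted from -1 for the base before the start, and a GC box begins at -16. In the Id3 promoter 2 overlapping GC boxes begin at -94 and -90 and GGCGCC is not among these letters. The windows of Tdgf1 and Bmp4, which were lower in Baf53b-expressing cells in the main setting, held a GC box as well, at -6 and -38, and that of Nodal held none. Searched on both strands of the same window, GGCGCC was found in 9.59% and the GC box in 32.7% of 32851 promoters. The Smad palindrome GTCTAGAC (0.167% of promoters) and the Foxh1 sites AATCCACA and AATACACA (1.61%) were in none of the 5 windows. Both windows had a GC content of 62.8%, against a median of 52.4% over all promoters. These matches describe letters only, and the arrays do not measure binding.

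The other genes of both pathways differed little as well, as did most genes measured on both arrays. Of 80 further genes listed by role, 71 were measured on both arrays and 8 were not well above background on either, Cer1, Bmp5 and Smad9 among them. Gdf6 passed only on the array of Baf53b-expressing cells, at 1.31-fold the lowest signal well above background on the other array. The 71 had a median of 0.04, against -0.0032 over all genes, and 59 of them lay within 0.2, as did 80.5% of all genes. Of the 71, 47 were higher in Baf53b-expressing cells (66.2%, against 49.1% of all genes) and 24 lower, a share that was 49.3% with the arrays centred on the median, where 35.6% of all genes were higher, and was 57.7% under quantile normalization, 56.3% under cyclic loess and 50.7% with normexp. None was 2-fold apart, against 0.193% of all genes. At least 0.5 higher were 2 of the 71 (1.66% of all genes), and 0 were at least 0.5 lower (0.686%).

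These 2 were dim type I receptors. Bmpr1b, a BMP receptor, stood at -4.45 in Baf53a- and -3.84 in Baf53b-expressing cells, a log2 difference of 0.60 with a spot SD of 0.119. Its second probe passed the background flag on the array of Baf53b-expressing cells alone, with a log2 difference of 0.31. Acvr1c, a receptor for Nodal, stood at -5.57 and -5.06, a log2 difference of 0.52 with a spot SD of 0.274, and its second probe was not well above background on either array. The values of Bmpr1b ran from 0.28 to 0.60 and those of Acvr1c from 0.15 to 0.59 over the settings in which they were measured, the lowest with normexp for both. A second probe of Sostdc1, a secreted BMP antagonist, passed on the array of Baf53b-expressing cells alone. Its log2 difference was 1.31, while the first Sostdc1 probe differed by 0.02. A probe of Gdf7, a BMP ligand, passed on the array of Baf53a-expressing cells alone, while its other probe differed by 0.23. The first of these stood at 1.15-fold the lowest signal well above background on the other array. The spot SD of the dimmest group was 0.274.

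The receptors and co-receptors on the Nodal side, Tdgf1 included, were higher in Baf53b-expressing cells in 8 of 9 cases, with a median of 0.15. The count was 7 to 9 of 9 under the 4 alternative scalings and background corrections. Of all genes, 49.1% were higher in the main setting and 35.6% to 48.3% under those alternatives. Cfc1, a relative of Tdgf1 encoding the co-receptor Cryptic, differed by 0.32. The type I receptors Acvr1b and Tgfbr1 differed by 0.21 and 0.07, and the type II receptors Acvr2a, Acvr2b and Tgfbr2 by 0.14, 0.0029 and 0.20. Of these 5 receptors, Acvr2b was the one measured in the brightest group of probes. Dim probes of any gene tended to be higher on the array of Baf53b-expressing cells. In the 2 dimmest of the 5 groups the medians were 0.10 and 0.05, and 64.6% and 61.4% of probes were above 0. The part of this trend in the receptor values was not tested.

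On the BMP side, 7 of the 8 receptors and co-receptors were higher, against 49.1% of all genes, with a median of 0.04. The count was 3 to 5 of 8 under those 4 alternatives, in which 35.6% to 48.3% of all genes were higher. Apart from Bmpr1b, the gene values of the receptors were close to level. Log2 differences were 0.0059 for Bmpr1a, 0.06 for Acvr1, 0.0072 for Acvrl1, 0.05 for Bmpr2 and 0.10 for the co-receptor Eng. The 2 probes of Acvr1 disagreed, at 0.20 on the brighter, where the spot SD was 0.066, and -0.08 on the dimmer.

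The Smads, which carry the signal to the nucleus, differed by 0.12 at most in size when the probes of a gene were averaged. Smad2 differed by 0.12, Smad3 by -0.04 and Smad4, shared by both pathways, by -0.11. Smad1 differed by -0.09 and Smad5 by 0.05. Single probes spread wider. From the brighter to the dimmer probe, Smad3 had 0.05 and -0.13, Smad4 -0.08 and -0.14, Smad1 -0.18 and -0.0072, and Smad5 0.04 and 0.07. Among nuclear partners, Tgif1, a corepressor of Smads, differed by -0.13 and Foxh1, which brings Smad2 to Nodal targets, by 0.0041. Fstl1, a secreted BMP antagonist, differed by -0.16. Dusp9, a phosphatase of ERK induced by BMP4 in ES cells, had a log2 difference of 0.16 that stayed between 0.11 and 0.21 over all 11 settings. Of the 10 BMP targets listed, Id1, Id2 and Id3 included, 8 were higher in Baf53b-expressing cells, against 49.1% of all genes. The count was 6 to 8 over all settings, in which 35.6% to 50.5% of all genes were higher. Other roles were less one-sided or went the other way in the main setting, where 49.1% of all genes were higher. On the Nodal side, 5 of 11 ligand, 6 of 11 transducer, 1 of 4 secreted inhibitor and 1 of 4 other target genes were higher. On the BMP side, 7 of 10 ligands, 1 of 2 transducers and 6 of 11 inhibitors were higher. These counts moved with the scaling. Under quantile normalization and normexp, 8 of 10 BMP ligands and 7 of 10 BMP targets were higher, against 46.9% and 46.6% of all genes. In the same settings 3 of 4 secreted inhibitors and 2 of 4 other targets on the Nodal side were higher. With the arrays centred on the median, 6 of 10 BMP ligands, 0 of 4 secreted inhibitors and 1 of 4 other targets were higher, against 35.6%.

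**Figure D4:**
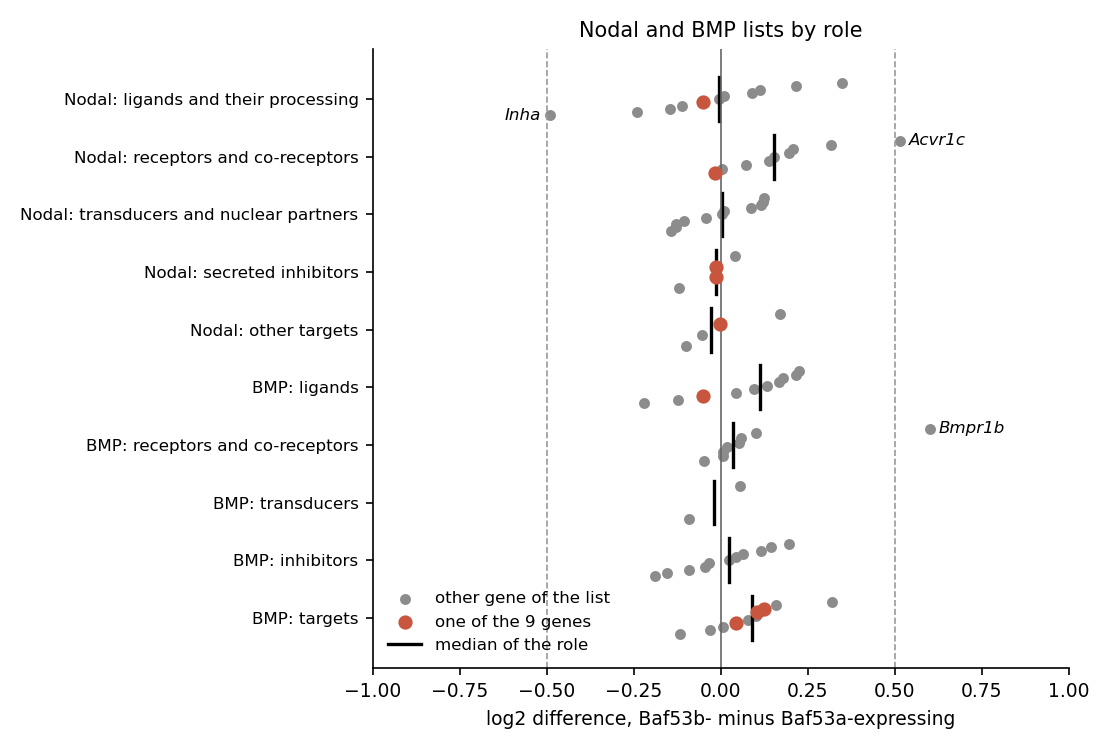
Log2 difference (Baf53b- minus Baf53a-expressing cells) of the 80 listed genes measured on both arrays, by pathway and role, with the 9 genes as large points, the median of each role as a bar and dashed lines at 0.5 in both directions. The large points lie between -0.05 and 0.12, and Bmpr1b and Acvr1c lie beyond 0.5.

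The labelled cell type was checked by its markers. All 12 ES cell markers, Pou5f1 and Nanog among them, were well above background on both arrays, with differences from -0.15 to 0.07. Of the 12, 9 were lower in Baf53b-expressing cells, with a median of -0.07. Most of them lie above the 75th percentile, where 30.4% of all genes were higher and the median was -0.0478. The number of the 12 that were higher was 3 in the main setting and 1 with the arrays centred on the median. It was 5 under quantile normalization, cyclic loess and normexp. In the same order of settings, 49.1%, 35.6%, 46.9%, 48.3% and 46.6% of all genes were higher. The summed levels of the 12, in units of the 75th percentile, were 370 and 356. Markers of primitive endoderm were higher in Baf53b-expressing cells for 11 of 11 genes (0.05 to 0.40), against 49.1% of all genes. Their summed levels were 24.2 and 29.5, most of it from Lama1, without which they were 5.24 and 6.13. Of 7 trophoblast markers 6 were measured, all higher (0.15 to 0.39), against the same 49.1% of all genes. Their sums were 36.8 and 45.9, or 3.27 and 3.83 without Krt18, and Elf5 was not well above background. Primitive streak and mesoderm markers (7 of 8 measured, sums 1.37 and 1.42), neural ectoderm markers (7 of 7, 3.17 and 3.11) and fibroblast markers (4 of 5, 1.19 and 1.14) had medians of -0.02, 0.01 and 0.0037. In the same order, single markers ran from -0.21 to 0.25, from -0.10 to 0.50 and from -0.15 to 0.22. Mixl1 and Postn were not well above background. The part of these cell types in the values of the Id genes and of the receptors was not tested.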

How the data were processed

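Total RNA of 1 culture per condition was labelled with Cy3 and hybridised to 1 mouse array each. The authors used Agilent Feature Extraction 11.0.1.1, and the deposited spot intensity is the processed signal after background subtraction and spatial detrending, not scaled between arrays, on a design annotated on mm9. The deposited value table holds a ratio per probe. All 30479 probes compared equalled the probe's signal divided by 1 number per array, 1160 for Baf53a- and 1126 for Baf53b-expressing cells, within 0.1%. The scale and direction of the table are therefore known, and its column medians were 0.257 and 0.262.

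Control spots and outlier spots (173 and 143 of 43020) were left out, log2 intensities of the spots of a probe were averaged, and each array was scaled by subtracting its 75th percentile (signals of 1161 and 1128). A probe was measured on both arrays when at least 50% of its spots were well above background, and the value of a gene is the mean of such probes. Gene symbols came from matching the RefSeq accession of a probe to an annotation table of GRCm38.p6, which gave 27410 of 39411 probes a symbol. The array probes' own sequences were not analysed here. Signals of different probes were ranked only to choose genes to name and added only in sums over marker lists, in which the brightest probe weighs most.

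The 9 genes, the wider lists and the marker lists were chosen with earlier results of these data known. Named from the wider lists were genes at least 0.5 apart on the log2 scale, genes seen on 1 array only, the gene with the highest signal in each role, and the Smad and receptor genes. Gdf3, Cfc1, Inha, Id4 and the single Sostdc1 and Gdf7 probes were named after their values were seen. With 1 array per condition no test was run. The alternatives were cyclic loess, quantile normalization, arrays centred on their median, normexp background correction with an offset of 50, a stricter or no filter for dim probes, a weaker detection flag, outlier spots kept, the brightest probe of a gene and the authors' value table. Python 3.11.15, numpy 2.4.6, pandas 2.3.3, matplotlib 3.10.9, R 4.3.3 and limma 3.58.1 were used, and the steps were tested on simulated data.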

Additional observations from a re-analysis of the deposited data

How the results depend on the processing

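No paired analysis was possible because each condition had a single array, and no replicate could be left out. Normexp was run on the median signal and followed by quantile normalization, since the mean signal was not used here. Under all 10 alternatives each of the 9 genes stayed within 0.2 of 0 on the log2 scale, with 0 of them at least 0.5 apart. The number of the 9 higher in Baf53b-expressing cells was 3 in the main setting, 9 under quantile normalization, 8 under cyclic loess and 9 with normexp. In the same order, 49.1%, 46.9%, 48.3% and 46.6% of all genes were higher. The genes of the wider list at least 0.5 higher were 2 in the main setting, 1 under quantile normalization, centring on the median and cyclic loess, and 0 with normexp and with the stricter filter, which leaves out dim probes. At least 0.5 lower was 0 in the main setting and 1 under quantile normalization, centring on the median and cyclic loess, which was Inha (-0.49 in the main setting, -0.57, -0.54 and -0.58 in these). Over all genes, the share at least 0.5 apart in either direction was 2.35% in the main setting. It was 1.95% under quantile normalization, 2.05% with centring, 1.91% under cyclic loess, 0.157% with normexp and 0.345% with the stricter filter. The median of the wider list was -0.0067 with the arrays centred on the median, against 0.04. The log2 lower bound for Actl6b, 3.86, was 1.44 with normexp, 3.58 with the authors' value table and 5.17 with the weaker detection flag. The last is the whole difference of the probe, and whether the probe passed that flag on the array of Baf53a-expressing cells was not recorded. The cause of these shifts was not tested. Signal over background limits the dim genes: the lowest signals well above background were 8.45 and 9.75.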
